A study of Mus musculus with 8 samples.

Results

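Genes by which resident macrophages of the dermis are commonly recognised were examined in mouse cheek skin, namely Mrc1, Cd163, Lyve1, Folr2, C1qa, C1qb, C1qc, F13a1, Adgre1 and Csf1r. They were chosen by gene symbol, and each of the 10 symbols matched 1 row among the 18901 genes of the deposited table. RNA-seq of BNP-injected skin compared 4 TBX20fl/fl;K14-Cre mice, in which exons 2 and 3 of Tbx20 are removed from K14-expressing cells such as keratinocytes, with 4 TBX20fl/fl mice that carry the floxed alleles without Cre, called knockout and control mice here. All 8 mice were female and 7 weeks old. Each had received 10 µg of B-type natriuretic peptide (BNP), an itch-inducing peptide, into the dermis of the left cheek, and skin was taken 5 h after a 30 min recording of scratching. K14-Cre is active in keratin 14-positive epithelium and is not designed to act in macrophages. No RNA-seq of uninjected or vehicle-injected skin was used here, so levels before BNP are not known.

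Resident macrophages of the dermis live around blood vessels, lymphatic vessels and nerves and clear debris, haemoglobin and pathogens by endocytosis. They depend on the receptor CSF1R, which binds the ligands CSF1 and IL-34, and they are a major source of C1q, the recognition molecule of the classical complement pathway. Monocytes that enter inflamed skin express other genes at first and can later take on resident features. In RNA from whole skin, fewer macrophages and less RNA per macrophage cannot be told apart.

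The knockout and control libraries held 19260856 to 19880654 and 16056282 to 19617762 counts. The 10 genes together took 0.136 to 0.205% of the counts in the knockout and 0.128 to 0.196% in the control mice. Every one was well above the detection floor of 3 counts, with at least 789 counts in each mouse, and all 10 passed the filter on low counts. Tbx20 itself had 0 to 2 counts per knockout library and 0 to 3 per control library, so its deletion could not be checked in whole skin at this depth. TBX20fl/fl replicate 2 stood apart: its normalization factor (trimmed mean of M-values, TMM) was 0.735, against 1.01 to 1.04 in the other control mice and 1.03 to 1.07 in the knockout mice, and its FPKM values, which scale counts by library size and transcript length, summed to 772536 against 521852 to 605508 elsewhere.

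No gene of the group differed between genotypes at an adjusted p under 0.05. By the quasi-likelihood test of edgeR, with p-values adjusted after Benjamini and Hochberg, 0 of the 10 genes passed, as did 0 of all 17124 genes tested (0%). DESeq2 called 10 genes in the whole table and limma on FPKM called 0, and neither called any of the 10. Of the 10, 1 gene, C1qb, had an unadjusted p under 0.05, and it was lower in the knockout. Over all genes, 5.91% had such a p with a lower level in the knockout and 2.45% with a higher level. In 0 of the 10 genes did the FPKM ranges of the 2 genotypes separate, against 1.92% of all genes separated with lower and 5.45% with higher values in the knockout. In all, 7 of the genes were lower and 3 higher in the knockout, and 47.5% of all genes were lower. The median log2 fold change of knockout over control was -0.12 for the group and 0.026 for all genes, and these medians were 0.045 and 0.12 when FPKM was fitted with limma. In that limma fit 4 of the 10 genes were lower.

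The promoters of Mrc1, C1qb and C1qc are shown because they stand for an endocytic receptor and for a neighbouring pair of complement genes. They were also picked because each carries, on either strand, core letters of sites bound by the myeloid ETS factor PU.1. Each sequence is the 250 bases before the RefSeq transcript start, read 5′ to 3′ on the gene's strand, from RefSeq on GRCm38.p6. Capitals mark GAGGAA or its reverse complement TTCCTC. The Mrc1 window is chr2:14229164-14229413 on the plus strand, the C1qb window chr4:136886201-136886450 on the minus strand and the C1qc window chr4:136892915-136893164 on the minus strand.
Mrc1: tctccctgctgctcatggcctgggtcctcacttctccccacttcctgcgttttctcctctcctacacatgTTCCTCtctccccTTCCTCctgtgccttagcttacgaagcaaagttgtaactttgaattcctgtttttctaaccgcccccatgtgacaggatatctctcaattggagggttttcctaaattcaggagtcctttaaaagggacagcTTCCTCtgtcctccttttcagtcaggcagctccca
C1qb: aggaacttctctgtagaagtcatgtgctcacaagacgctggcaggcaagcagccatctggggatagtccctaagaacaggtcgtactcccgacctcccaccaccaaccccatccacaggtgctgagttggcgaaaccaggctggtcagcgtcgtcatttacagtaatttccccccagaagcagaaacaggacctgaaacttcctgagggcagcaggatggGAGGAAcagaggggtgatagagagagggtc
C1qc: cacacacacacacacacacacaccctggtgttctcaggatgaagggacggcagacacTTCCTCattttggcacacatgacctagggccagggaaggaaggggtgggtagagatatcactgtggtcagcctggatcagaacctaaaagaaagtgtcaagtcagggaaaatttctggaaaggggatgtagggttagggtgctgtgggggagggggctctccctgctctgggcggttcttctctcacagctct
The first bases of the matches stood at -180, -167 and -35 in Mrc1, at -30 in C1qb and at -193 in C1qc, counted from the transcript start. Promoters were found for 6 of the 10 genes, Mrc1, Cd163, Folr2, F13a1, C1qb and C1qc, with 8 promoters in all. The motif was present on either strand in 4 of these 8 and in 23.3% of all 32851 promoters of that length. TGCTGA or TCAGCA, the core of the MAF half-site, was present in 3 of the 8 and in 16.1% of all promoters, and TATAAA or TTTATA in 0 of the 8 and in 12.4% of all. No searched motif is contained in another, and a match describes the sequence only.

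Mrc1 encodes the mannose receptor CD206, an endocytic lectin. Its gene lies on chromosome 2 from 14229414 to 14332023 on the plus strand of GRCm38. The FPKM of Mrc1 was 44.9, 48.0, 69.8 and 71.7 in TBX20fl/fl;K14-Cre replicates 1 to 4 and 43.6, 26.0, 51.2 and 62.7 in TBX20fl/fl replicates 1 to 4. The highest values were in knockout replicates 3 and 4, the lowest was in control replicate 2, and the groups overlapped. Each knockout mouse was above the control mouse of the same number, and the means were 58.6 ± 14.1 and 45.9 ± 15.4 FPKM (SD, n = 4 each). The log2 fold change was 0.23 with a standard error of 0.225 and a 95% interval from -0.28 to 0.73 (edgeR's quasi-likelihood test, adjusted p = 0.590). Without control replicate 2 it was 0.11.

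Cd163 encodes a scavenger receptor for haemoglobin. It lies on chromosome 6 from 124304636 to 124330529 on the plus strand. Its FPKM was 34.6, 34.8, 57.3 and 53.5 in the knockout mice and 27.3, 16.2, 36.9 and 48.9 in the control mice, in the order of their replicate numbers. Each knockout mouse was above the control mouse of the same number, but the groups overlapped (45.1 ± 12.1 and 32.3 ± 13.9 FPKM, SD, n = 4 each). The log2 fold change of 0.36 had a 95% interval from -0.26 to 0.99 (edgeR, adjusted p = 0.526), and it was 0.21 without control replicate 2 and 0.59 without control replicate 4. In the fit with a replicate block, which compares same-numbered mice, it was 0.39 with an interval from 0.02 to 0.76 (edgeR, unadjusted p = 0.0401), and the adjusted p stayed above the threshold. Over all genes, 3.52% were higher with an unadjusted p under 0.05 in that fit. After the correction for transcript length described below, the log2 fold change of Cd163 was 0.16. With the block added to that correction, it was 0.15 with an interval from -0.13 to 0.44. Levels of Cd163 and Mrc1 went together: the ratio of their FPKM stayed between 0.622 and 0.822 in all 8 mice. The table lists Gm15854 on the opposite strand within Cd163, with 0 counts in every mouse after rounding.

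Lyve1 encodes a hyaluronan receptor of perivascular macrophages that is also made by lymphatic endothelium. The gene lies on chromosome 7 from 110850607 to 110862953 on the minus strand. Its FPKM was 37.8, 21.9, 39.0 and 32.2 in the knockout mice and 27.6, 22.6, 41.0 and 38.7 in the control mice. The means were nearly equal, at 32.7 ± 7.80 and 32.4 ± 8.80 FPKM (SD, n = 4 each), and the log2 fold change was -0.13 with a 95% interval from -0.62 to 0.36 (edgeR, adjusted p = 0.743). Lymphatic endothelium was present in the tissue. All 6 of its markers were detected. Their summed FPKM was 235 to 294 in the knockout and 314 to 521 in the control mice, but the separation came from the chemokine gene Ccl21a (165 to 220 and 224 to 449 FPKM), and without it the sums overlapped at 58.8 to 89.7 and 72.3 to 90.2. Prox1, its defining transcription factor, had 1.34 to 2.51 and 0.58 to 2.33 FPKM. Its share in the Lyve1 level was not tested.

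Folr2 encodes folate receptor beta. It lies on chromosome 7 from 101839988 to 101857190 on the minus strand. Its FPKM was 46.4, 43.9, 56.2 and 58.7 in the knockout mice and 39.0, 85.1, 69.9 and 58.8 in the control mice, so that control replicate 2, the lowest mouse for Mrc1 and Cd163, was here the highest. The log2 fold change was -0.53 with a 95% interval from -1.21 to 0.16 (edgeR, adjusted p = 0.499), and -0.17 without that mouse. After the correction for transcript length described below it was -0.03. The ratio of Folr2 to Mrc1 in FPKM was 3.28 in control replicate 2 and 0.806 to 1.37 in the other mice. Of the 50-base stretches in Folr2 transcripts, 52.6% also occur in transcripts of Gm10602, which is not a row of the table, so its counts are uncertain. For the other endocytic receptors such shared stretches were 0% in Mrc1 and Lyve1 and 0.109% in Cd163.

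C1qa, C1qb and C1qc encode the chains A, B and C that assemble into C1q. They lie side by side on the minus strand of chromosome 4, within 18719 bases from 136880126 to 136898844, in the order C1qb, C1qc and C1qa. The gaps are 3600 and 2979 bases, and no other listed gene starts and ends between them. None of their 50-base stretches occurs in another gene's transcripts. The table also lists 5 gene models with spans of 146068858 to 149700653 bases that run across the cluster, and how their reads were divided from those of C1q is not known.

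These were the highest genes of the group. C1qb had 141.0, 146, 207 and 187 FPKM in the knockout mice and 156, 250.3, 259 and 226 FPKM in the control mice. The control mice were above every knockout mouse except for control replicate 1. The means were 170.1 ± 31.7 and 223 ± 46.7 FPKM (SD, n = 4 each), and C1qb was lower in the knockout mouse of each of the 4 same-numbered pairs. Its log2 fold change was -0.59 with a standard error of 0.251 and a 95% interval from -1.15 to -0.02 (edgeR, unadjusted p = 0.0427, adjusted p = 0.498). A two-sided exact permutation test of mean FPKM gave p = 0.114, where the smallest p possible with 4 mice against 4 is 0.0286. Without control replicate 2 the log2 fold change was -0.38 and the interval reached 0.07. Without control replicate 1, the lowest control mouse, it was -0.76 (unadjusted p = 0.00803, adjusted p = 0.353). In that fit 4 of the 10 genes had an unadjusted p under 0.05, with log2 fold changes of -0.74 for Folr2, -0.57 for C1qc and -0.50 for C1qa as the others, and 0 had an adjusted p under 0.05. Over all genes 10.9% had an unadjusted p under 0.05 with a lower level in the knockout in that fit, so the count also went up across the table.

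C1qa had 112, 104, 156 and 143 FPKM in the knockout mice and 101, 141, 172 and 157 FPKM in the control mice. C1qc had 120, 116, 182 and 152 FPKM in the knockout mice and 119.9, 173, 201 and 170.1 FPKM in the control mice. Both genes overlapped between genotypes, with knockout replicates 3 and 4 and control replicates 2, 3 and 4 above the rest. The log2 fold changes were -0.33 for C1qa and -0.41 for C1qc, with 95% intervals from -0.85 to 0.18 and from -0.95 to 0.13 (edgeR, adjusted p = 0.512 and 0.500). Without control replicate 2 they were -0.20 and -0.24, and after the correction for transcript length described below they were 0.08 and 0.03.

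The balance between the chains was compared within each mouse, where sequencing depth cancels. C1qb over C1qa was 1.26, 1.41, 1.33 and 1.30 in the knockout mice and 1.54, 1.77, 1.50 and 1.43 in the control mice, as a ratio of FPKM. C1qb over C1qc was 1.17, 1.26, 1.13 and 1.23 in the knockout mice and 1.30, 1.45, 1.29 and 1.33 in the control mice. Both ratios were lower in every knockout mouse than in every control mouse, control replicate 2 left out or not. C1qa over C1qc overlapped, at 0.853 to 0.943 and 0.817 to 0.926. Of the 8 ratios examined these 2 were without overlap, and they share C1qb. Set against the same denominators, 0.476% of all genes had a lower ratio to C1qa and 0.376% a lower ratio to C1qc in every knockout mouse. The ratios were picked out after their values were seen and are given as a description.

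**Figure D1:**
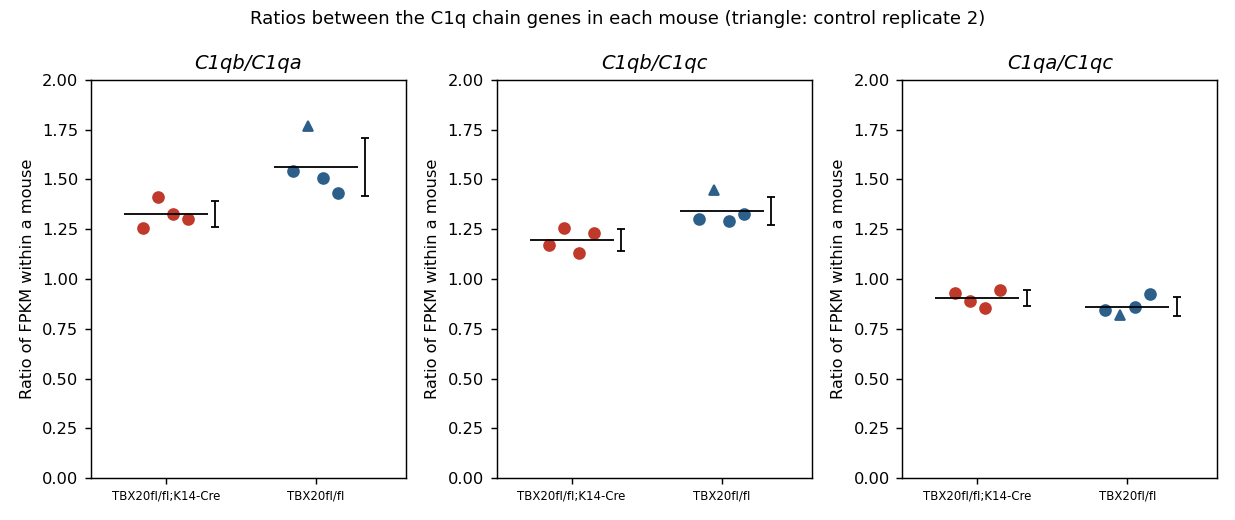
Ratios of FPKM (vertical axes, no unit) between the genes of the C1q chains, with 1 point per mouse, a line at the group mean and a bar of ± 1 SD; the triangle is TBX20fl/fl replicate 2. C1qb over C1qa stayed at or below 1.41 in the 4 knockout mice and at or above 1.43 in the 4 control mice, whereas C1qa over C1qc overlapped.

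F13a1 encodes the A subunit of coagulation factor XIII, a transglutaminase that crosslinks fibrin. It lies on chromosome 13 from 36867178 to 37050244 on the minus strand. Its FPKM was 84.0, 79.7, 105 and 96.3 in the knockout mice and 72.3, 62.9, 108 and 112 in the control mice. The knockout values lay inside the range of the control values, with means of 91.3 ± 11.7 and 89.0 ± 25.1 FPKM (SD, n = 4 each). Its log2 fold change was -0.11 and the 95% interval ran from -0.53 to 0.31 (edgeR, adjusted p = 0.751). The sign differs from that of the FPKM means, which are not scaled by the TMM factor. When FPKM was fitted with limma it was 0.07. F13b, which encodes the carrier subunit, had at most 3 counts in any mouse and was not tested.

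Adgre1 encodes F4/80, the adhesion receptor most used to mark mouse macrophages. It lies on chromosome 17 from 57358581 to 57483529 on the plus strand. Its FPKM was 20.0, 20.8, 37.0 and 28.8 in the knockout mice and 22.7, 15.8, 28.8 and 32.4 in the control mice. This was the lowest gene of the group, and its log2 fold change with all mice was -0.04, with a 95% interval from -0.55 to 0.47 (edgeR, adjusted p = 0.927), or -0.12 without control replicate 2.

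Csf1r encodes the receptor for CSF1 and IL-34. It lies on chromosome 18 from 61105572 to 61131139 on the plus strand. Its FPKM was 29.8, 25.6, 51.1 and 44.9 in the knockout mice and 27.2, 12.9, 27.3 and 39.6 in the control mice. The knockout mouse was higher in each of the 4 same-numbered pairs, and the groups overlapped. The log2 fold change was 0.39 with a 95% interval from -0.25 to 1.02 (edgeR, adjusted p = 0.520). It was 0.23 without control replicate 2, 0.21 without knockout replicate 3 and 0.59 without control replicate 4. In Csf1r transcripts 14.3% of the 50-base stretches also occur in transcripts of Hmgxb3, a gene with 79 to 487 counts per mouse, the lowest of them in control replicate 2. The ligand gene Csf1 had 20.2 to 37.3 FPKM in the knockout and 13.4 to 28.6 in the control mice, and Il34 had 12.1 to 17.0 and 11.1 to 14.4, with log2 fold changes of 0.02 and 0.03 that were -0.10 and 0.11 without control replicate 2. These ligand genes were named for their role, outside the rule for named genes.

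**Figure D2:**
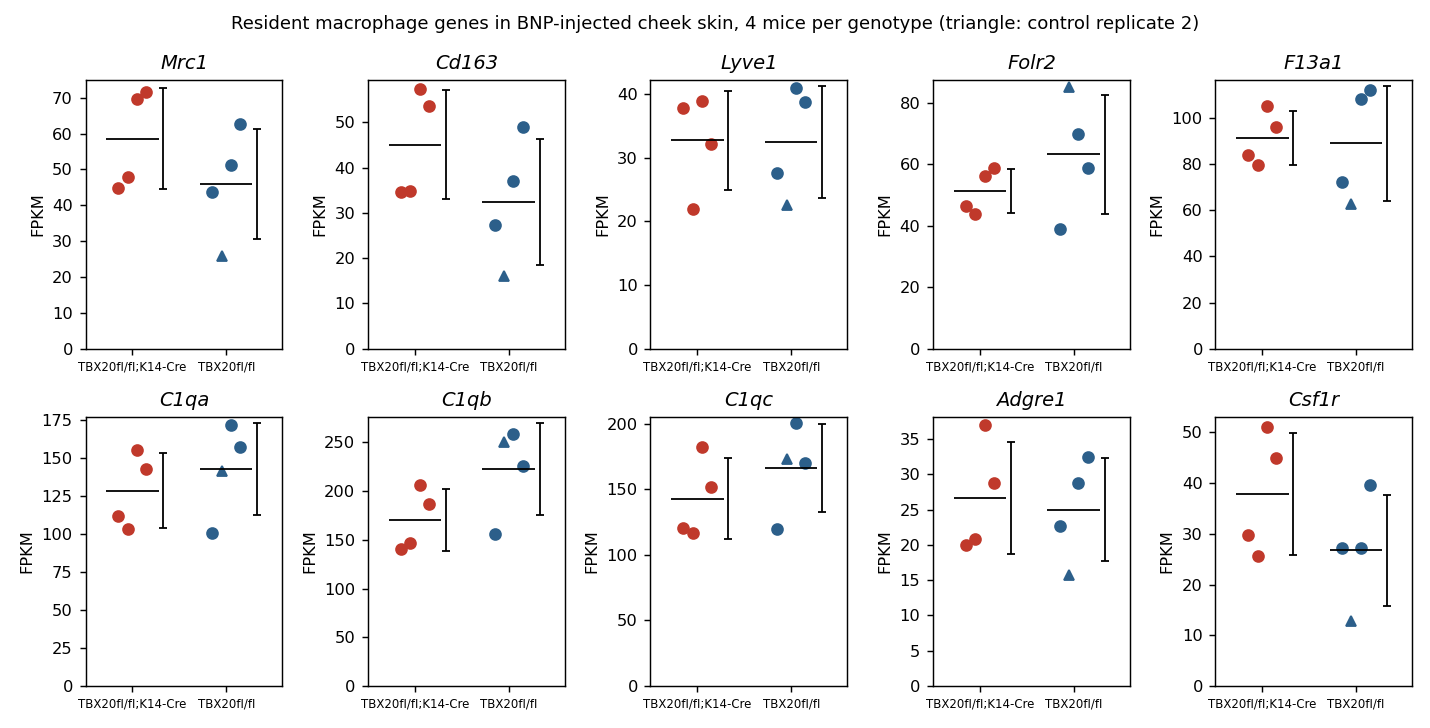
FPKM of each gene (vertical axes, from 0) in the 4 TBX20fl/fl;K14-Cre mice (red) and the 4 TBX20fl/fl mice (blue), with a line at the group mean and a bar of ± 1 SD; the triangle is TBX20fl/fl replicate 2. The genotypes overlap in all 10 panels, and the triangle is the lowest control point for Mrc1, Cd163, Lyve1, F13a1, Adgre1 and Csf1r and the highest for Folr2.

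By mean FPKM over the 8 mice, which takes transcript length into account, the order was C1qb (196), C1qc (154), C1qa (136), F13a1 (90.1), Folr2 (57.3), Mrc1 (52.2), Cd163 (38.7), Lyve1 (32.6), Csf1r (32.3) and Adgre1 (25.8). C1qb was above C1qc, C1qc above C1qa, C1qa above F13a1 and Mrc1 above Cd163 in 8 of 8 mice. Folr2 was above Mrc1 in 3 of 8, Cd163 above Lyve1 in 4 of 8 and Lyve1 above Csf1r in 4 of 8, so that these neighbours do not have a stable order. The coefficient of variation over the 8 mice ran from 19.8% for C1qa to 37.8% for Csf1r.

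The genotype differences were set against transcript length. The 4 genes with short transcripts, of 1009 to 1055 bases (C1qa, C1qb, C1qc and Folr2), were all lower in the knockout, with a median log2 fold change of -0.47. The 6 genes with transcripts of 2558 to 5269 bases had a median of 0.09 and ran from -0.13 to 0.39, with 3 of them lower. Control replicate 2 moved with this split. On the log2 CPM scale, which adjusts counts for library size multiplied by the TMM factor and not for transcript length, it was above the mean of the 8 mice by a median of 0.73 for the 4 short genes and differed from it by a median of -0.35 for the 6 long ones. After each mouse was corrected for a smooth trend of log2 counts over transcript length, the log2 fold changes drew in to between -0.28 (F13a1) and 0.25 (Csf1r). Those of Mrc1, C1qa and C1qc changed sign, to -0.11, 0.08 and 0.03, and that of C1qb was -0.15 with a 95% interval from -0.56 to 0.26. On the corrected scale knockout replicate 2 was below control replicate 2 for Mrc1 (7.76 and 8.39), Cd163 (7.07 and 7.17) and Csf1r (6.45 and 6.51). These genes were then no longer higher in every same-numbered pair, whereas C1qb stayed lower in each. How often genes of the whole table run 1 way in all 4 pairs was not counted. What gives rise to the trend with transcript length was not tested.

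**Figure D3:**
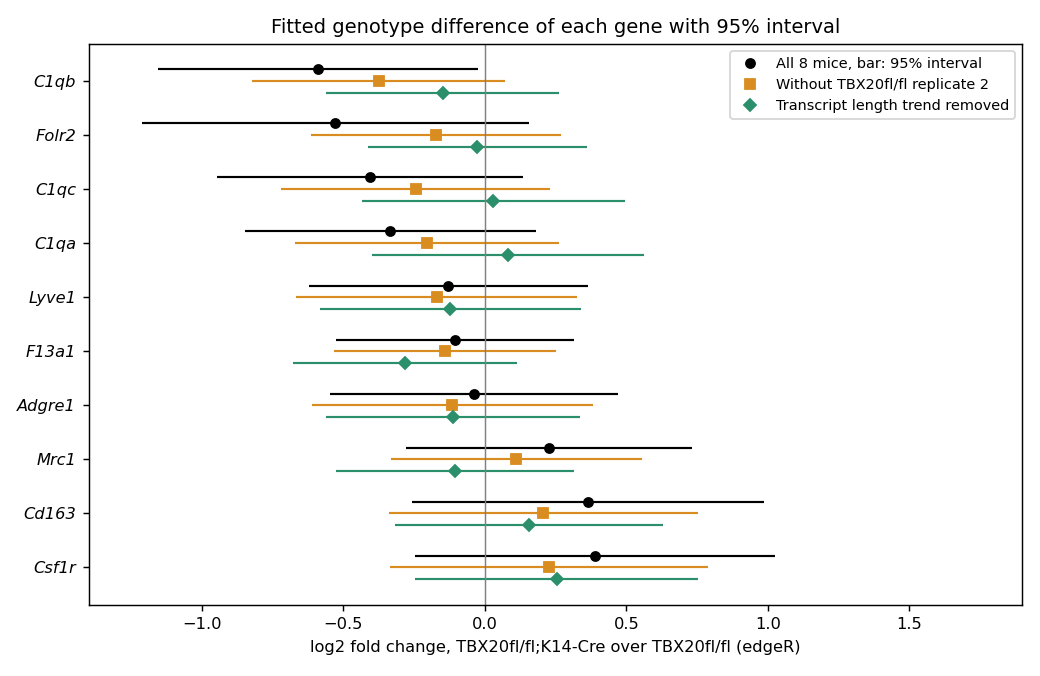
Log2 fold change of TBX20fl/fl;K14-Cre over TBX20fl/fl (horizontal axis) for each gene with its 95% interval from edgeR, for all 8 mice (black circles), without TBX20fl/fl replicate 2 (orange squares) and after removal of the trend with transcript length (green diamonds). Among the 3 fits shown, only C1qb with all 8 mice has an interval that leaves out 0, from -1.15 to -0.02. The fit with the replicate number as a block is not shown. There the intervals of Cd163, from 0.02 to 0.76, and of C1qb, from -1.08 to -0.004, leave out 0. With the length trend also removed, these run from -0.13 to 0.44 and from -0.40 to 0.08.

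Levels of the group as a whole varied between mice within each genotype. With the length trend removed, TBX20fl/fl;K14-Cre replicate 3 and TBX20fl/fl replicate 4 were above the mean of the 8 mice in 10 of 10 genes, and TBX20fl/fl replicate 3 was in 9. TBX20fl/fl;K14-Cre replicate 2 and TBX20fl/fl replicate 1 were above it in 0 of 10 genes, and TBX20fl/fl;K14-Cre replicate 1 was in 1. Both genotypes therefore held mice with high and with low levels of nearly the whole group. The genes varied together across mice: the Pearson correlation over the 8 mice was positive in 35 of 45 gene pairs as counted (median 0.52) and in 45 of 45 with the length trend removed (median 0.74). The mice share libraries across genes, so these correlations are a description.

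When each mouse was left out in turn, the log2 fold changes of the genes with long transcripts ran from 0.11 (without control replicate 2) to 0.36 (without control replicate 4) for Mrc1, from 0.21 to 0.59 (the same mice) for Cd163 and from 0.21 (without knockout replicate 3) to 0.59 (without control replicate 4) for Csf1r. They ran from -0.22 (without control replicate 1) to -0.02 (without control replicate 3) for F13a1, from -0.23 (without control replicate 1) to 0.02 (without knockout replicate 2) for Lyve1 and from -0.24 (without knockout replicate 3) to 0.07 (without knockout replicate 1) for Adgre1, so that the sign of the last 2 turned. For Folr2, C1qa, C1qb and C1qc the ends were fits without control replicate 1 and without control replicate 2, from -0.74 to -0.17, from -0.50 to -0.20, from -0.76 to -0.38 and from -0.57 to -0.24. The unadjusted p of C1qb was under 0.05 without control replicate 1 or without knockout replicate 3, and above it in the other 6 fits.

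**Figure D4:**
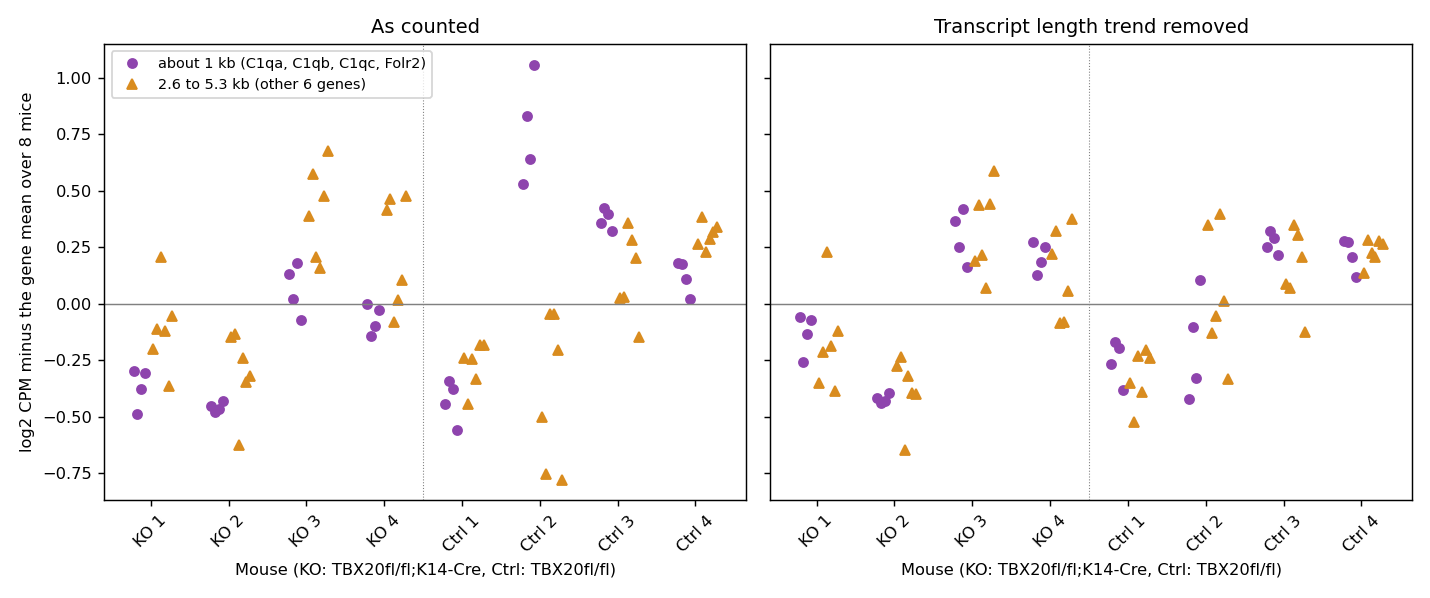
Deviation of each gene's log2 CPM from its mean over the 8 mice (vertical axis) in every mouse (horizontal axis), as counted (left) and with the trend with transcript length removed (right); circles are the 4 genes with transcripts of about 1 kb and triangles the other 6. On the left, control replicate 2 splits into circles above 0 and triangles below it; on the right, knockout replicate 3 lies above 0 and knockout replicate 2 and control replicate 1 below it in 10 of 10 genes.

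Of 19 other genes of resident macrophages, 11 were lower and 8 higher in the knockout, with a median log2 fold change of -0.14, and 0 had an adjusted p under 0.05. The median was -0.05 without control replicate 2, -0.27 without control replicate 1 and 0.06 with the length trend removed. The genes lower with an unadjusted p under 0.05 were 1 with all mice, 0 without control replicate 2 and 4 without control replicate 1. Of all genes, 5.91%, 4.5% and 10.9% were lower with such a p in these fits. With all mice only Pf4, a platelet-type chemokine also made by resident macrophages, was lower with an unadjusted p under 0.05 (log2 fold change -0.70, edgeR, adjusted p = 0.498), and only Mertk, a receptor for apoptotic cells, was higher (0.58, adjusted p = 0.498). Pf4 was at -0.41 without control replicate 2 and at -0.06 with the length trend removed, and Mertk at 0.43 and 0.36. The FPKM of Mertk was 4.26 to 5.71 in the knockout and 1.53 to 3.72 in the control mice, without overlap. Selenop, which encodes selenoprotein P, was the most abundant gene of the list at 568 to 955 FPKM in the knockout and 521 to 754 in the control mice (log2 fold change -0.14, and 0.11 without control replicate 2). Mgl2, a galactose-type lectin, had a log2 fold change of -0.45, and Gas6, a ligand of MERTK, one of 0.39 (edgeR, adjusted p = 0.502 and 0.508), which became -0.21 and 0.19 without control replicate 2.

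Of 15 genes for CSF1R ligands and general myeloid functions, 11 were lower, 6 of them with an unadjusted p under 0.05, as were 5.91% of all genes. An adjusted p under 0.05 was reached by 0 of them, and the median of the list was -0.23. The median was -0.32 without control replicate 2, where 5 of its genes were lower with an unadjusted p under 0.05, as were 4.5% of all genes. With the length trend removed it was -0.28, with 4 such genes against 5.75% of all genes. Lyz2, which encodes lysozyme, had 736 to 1086 FPKM in the knockout and 913 to 2044 in the control mice (log2 fold change -0.83, edgeR, adjusted p = 0.498), the highest in control replicate 2. It was at -0.36 without that mouse and at -0.28 with the length trend removed. Tyrobp, an adaptor of activating receptors, had 108 to 163 and 149.5 to 351 FPKM (log2 fold change -1.01, adjusted p = 0.498), again highest in that mouse, and was at -0.57 without it and at -0.30 with the length trend removed. Cd68 and Laptm5, both of lysosomal membranes, had log2 fold changes of -0.12 and -0.08, of -0.11 and -0.14 without control replicate 2, and of 0.19 and -0.05 with the length trend removed.

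Genes that act with C1q and genes of haemoglobin, haem and iron handling were also examined. Of 6 partners of C1q in the classical pathway, 5 were higher and 1 lower, 0 with an unadjusted p under 0.05, and the median was 0.14, or 0.05 without control replicate 2. Among them, C3 had 120 to 229 FPKM in the knockout and 54.7 to 162 in the control mice (log2 fold change 0.43, and 0.22 without that mouse). In the fit with a replicate block C3 was at 0.47 (edgeR, unadjusted p = 0.0456). Of all genes, 3.52% were higher with an unadjusted p under 0.05 in that fit. The proteases C1ra and C1s1, which bind C1q, had log2 fold changes of 0.22 and 0.07 (0.12 and 0.08 without that mouse), and their inhibitor Serping1 one of -0.25 (-0.18 without it). Of 7 genes of haemoglobin, haem and iron handling, 6 were lower, 2 of them with an unadjusted p under 0.05, as were 5.91% of all genes. Without control replicate 1, 4 genes of this list were lower with such a p, as were 10.9% of all genes. Hp, which encodes haptoglobin, a binder of haemoglobin, had 279 to 451 FPKM in the knockout and 606 to 1039 in the control mice, without overlap (log2 fold change -1.19, edgeR, adjusted p = 0.498, and -1.12 without control replicate 2). Fth1, the ferritin heavy chain, had 1456 to 1849 and 1892 to 2678 FPKM, also without overlap (log2 fold change -0.65, adjusted p = 0.498), and was at -0.36 without control replicate 2 and at -0.15 with the length trend removed. Ftl1, the ferritin light chain, and Hmox1, the haem oxygenase, overlapped, with log2 fold changes of -0.51 and -0.26, which became -0.20 and -0.05 without that mouse. The list's median was -0.52, -0.20 without control replicate 2 and -0.004 with the length trend removed.

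Genes related to the group by family were mostly expressed at lower levels. Of 12 relatives 11 were tested, with 7 higher and 4 lower and a median log2 fold change of 0.19, which was 0.09 without control replicate 2 and turned to -0.05 with the length trend removed. The genes higher with an unadjusted p under 0.05 were 2 with all mice and 1 without control replicate 2, with Mrc2 lost. Of all genes, 2.45% and 3.19% were higher with such a p in these fits. Mrc2, the relative of Mrc1, had 5.13 to 8.25 FPKM in the knockout and 1.61 to 5.89 in the control mice (log2 fold change 0.62, edgeR, adjusted p = 0.498), with the 1.61 in control replicate 2 and a log2 fold change of 0.42 without it and 0.31 with the length trend removed. Stab2 was the other relative with an unadjusted p under 0.05 and was higher, but at 0.18 FPKM or less. Cd44, Adgre5 and Adgre4 had log2 fold changes of -0.13, 0.19 and -0.42, and of -0.15, -0.0006 and -0.34 without that mouse.

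Markers of recruited cells were measured in the same libraries, and none had an adjusted p under 0.05 by edgeR. Over all genes, 47.5% were lower and 5.91% were lower with an unadjusted p under 0.05. Of 8 recruited monocyte genes, 8 were lower, 6 with an unadjusted p under 0.05, and the median log2 fold change was -1.13 against -0.12 for the resident group. Their summed FPKM was 194 to 348 in the knockout and 296 to 699.8 in the control mice, and none was at 0 in all mice. Of 9 neutrophil genes, 8 were lower, 5 with an unadjusted p under 0.05, and the median was -0.96, with summed FPKM of 107 to 294 and 289 to 970.0. Without control replicate 2 these medians were -0.80 and -0.94, and with the length trend removed -0.83 and -1.01, while that of the resident group was -0.16 and -0.07. Ccr2, the receptor by which monocytes enter tissue, had 33.3 to 49.3 FPKM in the knockout and 35.5 to 70.5 in the control mice (log2 fold change -0.65). The neutrophil alarmin gene S100a8 had 39.1 to 110 and 104 to 448 FPKM (log2 fold change -2.10, edgeR, adjusted p = 0.498, and -1.37 with the length trend removed). It was the lowest of its list, which ran up to 0.57, and the authors used it as a marker of skin damage. With the length trend removed, Camp of the same list was at 0.53 and Ltf at -0.16. The difference between these lists and the resident group was not tested. Ccr2, S100a8, Camp and Ltf, like Pf4, Mertk, Stab2, Prox1 and Ccl21a, were named after their values were seen.

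The other cell types that whole skin holds were measured with the same fit. The median log2 fold change was -0.49 for 4 Langerhans cell genes, -0.38 for 5 mast cell genes and -0.20 for 6 dendritic cell genes. Without control replicate 2 these were -0.24, -0.18 and -0.09, and with the length trend removed -0.09, 0.06 and -0.29, so that the sign of the mast cell median turned. It was -0.04 for 6 lymphatic endothelial, 0.21 for 4 blood endothelial, 0.07 for 4 keratinocyte and 0.56 for 4 fibroblast genes. For 4 skeletal muscle and 4 adipocyte genes it was -0.04 and 0.02. These 6 medians without control replicate 2 were -0.15, 0.05, 0.05, 0.45, 0.05 and -0.006, and with the length trend removed -0.31, 0.09, 0.14, 0.19, 0.14 and 0.26. Without control replicate 1 the lymphatic and adipocyte medians turned to 0.05 and -0.01. Summed FPKM separated the genotypes, with lower values in the knockout, for mast cells (478 to 535 against 581 to 866) and, through Ccl21a alone, for lymphatic endothelium, and overlapped for the rest. No gene of these lists had an adjusted p under 0.05 (edgeR), and at an unadjusted p under 0.05 the lower genes were 2 Langerhans cell, 2 mast cell and 1 lymphatic endothelial gene and the higher genes 2 fibroblast genes. Of all genes, 5.91% were lower and 2.45% higher with such a p. In the fit without control replicate 2, 0 Langerhans cell genes had an unadjusted p under 0.05. With the replicate block the lower genes were 0 Langerhans cell, 2 mast cell, 2 lymphatic endothelial and 1 dendritic cell gene. The higher genes were then 2 fibroblast and 2 blood endothelial genes. Of all genes, 6.54% were lower and 3.52% higher with such a p in the block fit. The part of these cell types in the levels of the resident genes was not tested.

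**Figure D5:**
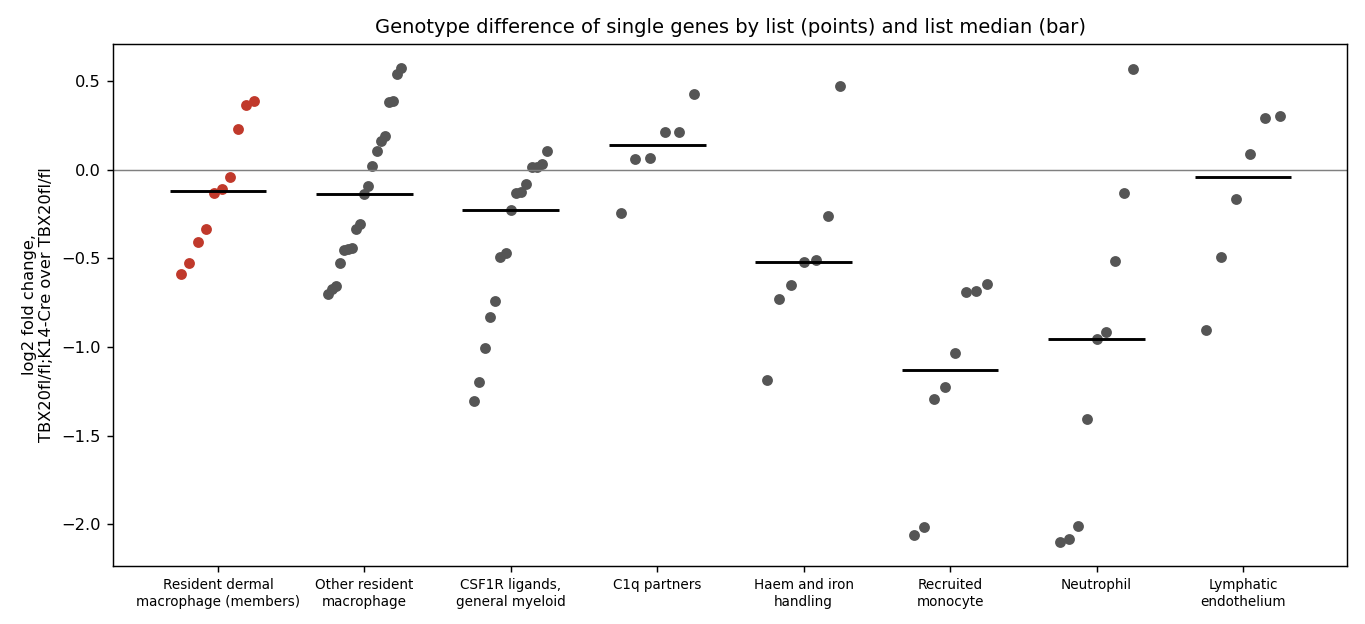
Log2 fold change of TBX20fl/fl;K14-Cre over TBX20fl/fl (vertical axis, edgeR) for single genes (points) with the median of each list (bar); red points are the 10 resident macrophage genes. The resident genes lie between -0.59 and 0.39 around a median of -0.12, and the recruited monocyte and neutrophil lists have medians of -1.13 and -0.96.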

How the data were processed

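RNA-seq of cheek skin from 4 TBX20fl/fl;K14-Cre and 4 TBX20fl/fl mice was analysed, with 1 library per mouse. The authors made single-end 50-base reads from poly(A) RNA, removed low-quality reads with SOAPnuke and used HISAT for alignment. The values deposited as read counts are estimated counts without normalization. The counting program and any use of strand are not given in the sources used here, and 69% of the counts above 0 were not whole. The authors also deposited FPKM, which scales a count by library size and transcript length. The deposited TPM (8 columns), normalized counts (8 columns), group means (40 columns) and fold changes, p-values and q-values of 17 comparisons by the authors were not used.

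Counts were rounded, rows totalling fewer than 10 counts were dropped, and genotypes were compared by the quasi-likelihood test of edgeR 4.0.16 (TMM, R 4.3.3) with Benjamini-Hochberg adjustment over 17124 genes. limma 3.58.1 on log2(FPKM + 1) and DESeq2 1.42.0 were alternatives, as were other size factors and filters, a pseudocount of 0.1, a spline of log2 transcript length removed from each mouse, a block for the replicate number, and fits without 1 mouse. Mean FPKM of single genes was tested over all 70 assignments of the mice (two-sided exact permutation). Separation of FPKM ranges was counted over the 15970 genes whose mean FPKM reached 0.1. Transcript length was taken from the ratio of counts to FPKM. Python 3.11.15 (pandas 2.3.3, numpy 2.4.6) was used for summaries. The fits were tested on simulated data.

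Library totals were 16056282 to 19880654 counts, at which 3 counts correspond to 0.151 to 0.187 CPM; such floors cover counting error only. For mice with the same replicate number, the correlation of their deviations from the group means was 0.108 to 0.323 in the 4 pairs, each over 0.1. Pairing by replicate number was therefore fitted as an alternative. The main fit and the permutation test do not use it. The 12 other pairs ran from -0.407 to 0.320, with 3 over 0.1, and deviations within a group sum to 0, which lowers these values. The pairing comes only from the deposited labels and this correlation, and p-values measure the spread between these mice.

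All 10 genes are named, with the 4 genes of highest mean FPKM in each of 5 pathway lists and the 5 genes most like the group; further genes are said to be named after their values were seen. The genes and lists were chosen with earlier results of these data known. Stretches of 50 bases shared between genes were counted in transcripts of the reference annotation.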

Additional observations from a re-analysis of the deposited data

Results flagged for a closer look

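One value stood apart among the 24 sets of 4 mice examined, where chance alone would give 1.2. The TMM factor of TBX20fl/fl replicate 2 was 0.735, and its distance to the nearest of the other control mice, at 1.01 to 1.04, took up nearly the whole range of the group. In this mouse the 4 genes with short transcripts lay 0.53 to 1.06 above their means over the 8 mice on the log2 CPM scale. The 6 genes with longer transcripts ran from -0.78 to -0.05 there. The log2 fold changes of Folr2 and C1qb were -0.53 and -0.59 with this mouse and -0.17 and -0.38 without it, and those of Cd163 and Csf1r were 0.36 and 0.39 with it and 0.21 and 0.23 without it. What sets this library apart was not tested.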

How the results depend on the processing

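Over 17 alternatives for each of the 10 genes, 150 of 170 values kept their direction and stayed above the adjusted threshold, and 20 values, from 6 genes, changed sign. The number of the 10 genes with an adjusted p under 0.05 was 0 under every alternative. The count over all genes was 0 in each alternative except the DESeq2 Wald test, which called 10; the cause was not tested. The group's median log2 fold change ranged from -0.23 to -0.01 when each mouse was left out, and no alternative moved it by more than the pooled SD of the mice (0.319). The median of all genes was 0.026, and 0.18 in limma with a pseudocount of 0.1. With the length trend removed, Mrc1, C1qa and C1qc changed sign, to -0.107, 0.0810 and 0.0287, and to -0.108, 0.0818 and 0.0170 with the replicate block added. In limma on log2(FPKM + 1), Lyve1, F13a1 and Adgre1 turned to 0.0173, 0.0725 and 0.0954, with or without the filter on low FPKM, and to 0.0179, 0.0736 and 0.0994 with a pseudocount of 0.1. The causes were not tested. Leave-one-out values ran from -0.24 to 0.07 for Adgre1, which was positive without knockout replicate 1 (0.0658), knockout replicate 2 (0.0614), control replicate 3 (0.0200) or control replicate 4 (0.0608), and from -0.23 to 0.02 for Lyve1, which was positive without knockout replicate 2 (0.0233). The replicate block changed no call, and in that paired edgeR fit 0 genes passed. Cd163 was at 0.39 (unadjusted p = 0.0401), Csf1r at 0.39 (unadjusted p = 0.0599) and C1qb at -0.54 (unadjusted p = 0.0487). Over all genes, 6.54% were lower and 3.52% higher with an unadjusted p under 0.05 in that fit. Each gene had at least 789 counts in each mouse, and the 95% intervals of single genes reached from -1.21 to 1.02. What limits these comparisons most was not tested.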

Other observations

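The genes outside the group whose log2 CPM across the 8 mice was most like the group's mean profile were found among 14401 genes with at least 1 CPM. They were Pld4, an exonuclease of phagocyte endosomes (Pearson r = 0.966), Cfp, which encodes properdin of the alternative complement pathway (0.955), Tbxas1, the thromboxane synthase (0.953), Lyl1, a transcription factor of blood cells (0.937), and Pttg1ip (0.937). Spearman's rho for these 5 ran from 0.786 to 0.976. Without the mice farthest from the median of the group's profile, TBX20fl/fl;K14-Cre replicate 2 and TBX20fl/fl replicate 1, Pearson's r ran from 0.832 to 0.943. The genes were picked for these values from all genes, and the libraries are shared, so no test is given. With the length trend removed the 5 most alike were Pttg1ip (0.981), Rnf130 (0.958), Ticam2 (0.946), Lipa, the lysosomal acid lipase (0.944), and Slc17a5, a lysosomal sialic acid transporter (0.944), so that Pttg1ip was in both sets. Pld4 had 11.5 to 21.2 FPKM in the knockout and 11.5 to 19.4 in the control mice, and Cfp 36.2 to 64.3 and 42.3 to 69.0.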
